A study of Caenorhabditis elegans with 36 samples.

Results

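The genes described here are 10 genes of the insulin and FOXO longevity pathway of *Caenorhabditis elegans*: *daf-2*, *age-1*, *pdk-1*, *akt-1*, *akt-2*, *sgk-1*, *daf-18*, *daf-16*, *skn-1* and *hsf-1*. They were taken by name from the 41875 loci of the table, by a rule that used no measured value. Earlier results of these data were known when they were chosen. For 9 of the 10 the table holds a locus of their own, and *daf-18* is only found in a locus joined with its neighbour *eri-1*, whose values belong to neither gene alone. The question for these genes was how much of each RNA is present, how much of it is bound to ribosomes, and whether either differs in *ppp-1* mutants. *ppp-1* encodes the gamma subunit of eIF2B, the factor that recharges eIF2 with GTP for translation initiation and that is inhibited in the integrated stress response. Total, monosome and polysome RNA (the last without disomes) was sequenced from untreated, synchronized gravid worms at day 1 of adulthood, grown on OP50 bacteria. The 3 genotypes were wild type (WT, Bristol N2), *ppp-1(wrm10)* and *ppp-1(wrm15)*, which gives 9 groups with 4 libraries each by the labels. Both alleles are missense mutations from a mutagenesis screen for longevity, each present in 1 outcrossed strain, so the RNA level of *ppp-1* itself does not check the labels and other mutations of a strain cannot be told apart from its *ppp-1* allele.

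DAF-2 is the worm's insulin and IGF-1 receptor. In fed animals it signals through the PI3 kinase AGE-1 and the kinases PDK-1, AKT-1, AKT-2 and SGK-1, which phosphorylate the FOXO factor DAF-16 and keep it out of the nucleus. Loss of this signal extends lifespan and acts through DAF-16 together with SKN-1, the Nrf-type regulator of detoxification genes, and HSF-1, the heat shock factor. These proteins are mainly controlled by phosphorylation and location, which RNA levels do not show.

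Each level below is FPKM, fragments scaled by transcript length and by the total of mapped fragments, so that levels of different genes can be compared per length. The table gives 1 value per group, pooled from its libraries by the authors, so there is no spread between replicates, no test, and no statement below that a difference exceeds replicate error. Where 3 values are given in a row without names, they stand for WT, then *ppp-1(wrm10)*, then *ppp-1(wrm15)*, and 2 differences in a row stand for the alleles in that order. Differences are log2 differences of FPKM + 0.1 between groups, read against the 12741 loci with a mean of at least 1 FPKM over the 9 groups. Both alleles were compared with the same WT values, so their differences from WT are not independent of each other. FPKM is relative and not a number of molecules. The ratio of polysome to total FPKM therefore compares a gene's relative level in polysome RNA with that in total RNA. In RNA of whole worms, fewer cells of a type and less RNA per cell cannot be told apart. The markers of gravid adults were present: the 6 intestinal markers, 4 of them vitellogenins, summed to 5682 FPKM in WT total RNA, the 6 measured oocyte markers to 1597 FPKM and the 9 sperm markers to 622 FPKM. Of the early embryo markers, 1 of 6 was at 0 in WT total RNA and all 6 together summed to 2.63 FPKM.

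In WT total RNA the 9 genes with a locus of their own spanned 3.85 to 74.4 FPKM. From the highest, the order was *akt-1*, *daf-16*, *skn-1*, *hsf-1*, *daf-2*, *age-1*, *sgk-1*, *pdk-1* and *akt-2*. The spread of neighbours in this order is unknown, and *daf-16* (52.4 FPKM) and *skn-1* (50.3 FPKM) were close. By the mean over the 9 groups, *daf-16* stood at 56.0 FPKM, at or above 83.6% of the loci, and *akt-2* at 4.68 FPKM, at or above 26.5%. The lowest of a gene's 9 values was in polysome RNA of WT for *daf-2*, *age-1*, *pdk-1* and *akt-1*, in polysome RNA of *ppp-1(wrm10)* for *daf-16*, *skn-1* and *hsf-1*, and in total RNA of a mutant for *akt-2* and *sgk-1*. The highest value over the lowest ranged from 1.53-fold for *daf-16* to 3.23-fold for *daf-2*.

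**Figure D1:**
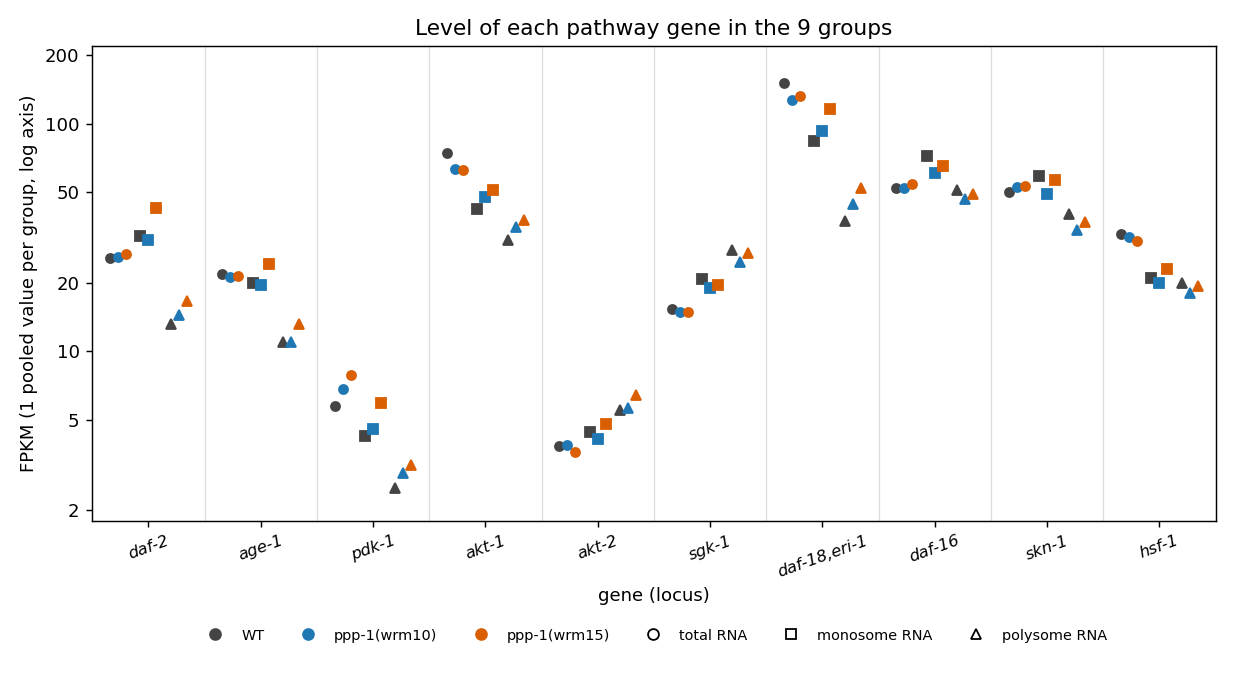
FPKM of each pathway gene on a log axis, 1 pooled value per group with no error bar. Colours are genotypes and shapes are fractions. In every genotype, polysome values lie below total values for *daf-2*, *age-1*, *pdk-1*, *akt-1*, *daf-16*, *skn-1*, *hsf-1* and the joined *daf-18*,*eri-1* locus and above them for *akt-2* and *sgk-1*.

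The receptor gene *daf-2* (WBGene00000898) lies on the minus strand of chromosome III, with its locus at 2995487 to 3040860 of WBcel235. Its longest annotated coding transcript has 19 exons and encodes 1928 residues. In total RNA it stood at 25.7, 26.0 and 26.8 FPKM. In monosome RNA the values were 32.2, 30.8 and 42.7 FPKM, and in polysome RNA 13.2, 14.4 and 16.7 FPKM. Thus total RNA differed little by genotype, and *ppp-1(wrm15)* was the highest in both ribosome fractions, by 0.40 over WT on the log2 scale in monosome RNA and by 0.33 in polysome RNA. *daf-2* RNA was more a monosome than a polysome RNA: polysome FPKM was 29.1%, 31.8% and 28.1% of polysome plus monosome FPKM, against 50.3%, 48.99% and 49.3% at the median locus.

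*age-1* (WBGene00000090; chromosome II, minus strand, 11518488 to 11527062), which encodes the catalytic subunit of PI3 kinase, had a similar pattern at a lower level. Its total RNA was 21.9, 21.3 and 21.5 FPKM. Its monosome RNA was 20.0, 19.5 and 24.3 FPKM and its polysome RNA 10.9, 11.02 and 13.2 FPKM. As for *daf-2*, *ppp-1(wrm15)* was highest in both ribosome fractions, by 0.27 over WT in each. The annotation has 2 protein-coding genes on the opposite strand of *age-1*, B0334.10 and Y62F5A.10, and the strand setting of the libraries and the counting is not given in the sources used here, so reads of overlapping genes may not be separated. Y62F5A.10 stood at 3.33, 13.9 and 13.3 FPKM in total RNA, while *age-1* total RNA differed from WT by -0.040 and -0.029 on the log2 scale.

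*pdk-1* (WBGene00003965; chromosome X, plus strand, 1321353 to 1327985) encodes the kinase that activates AKT and SGK. It was 5.72, 6.80 and 7.82 FPKM in total RNA, so both alleles were above WT, by 0.25 and 0.44 on the log2 scale. In monosome RNA it stood at 4.25, 4.56 and 5.93 FPKM and in polysome RNA at 2.51, 2.93 and 3.15 FPKM, the same order of genotypes in all 3 fractions. In total RNA 30.3% and 17.4% of the loci differed from WT at least as much as *pdk-1*. The gene on its opposite strand, F21E9.2, was at most 0.141 FPKM in any group.

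The AKT genes differed in level and in fraction. *akt-1* (WBGene00000102; chromosome V, plus strand, 10248907 to 10255055) was the most abundant of the kinases, at 74.4, 63.6 and 62.6 FPKM in total RNA. In monosome RNA it was 42.2, 47.9 and 51.2 FPKM and in polysome RNA 30.7, 35.1 and 37.6 FPKM. Both mutants therefore stood below WT in total RNA (by -0.23 and -0.25) and above it in both ribosome fractions (by 0.18 and 0.28 in monosome and by 0.19 and 0.29 in polysome RNA). The locus of the table runs past the annotated end of *akt-1* at 10252845 and overlaps *rop-1* on the opposite strand, whose differences from WT in total RNA were -0.14 and -0.16. *akt-2* (WBGene00000103; chromosome X, plus strand, 14147700 to 14152070) was the least abundant member, at 3.85, 3.86 and 3.60 FPKM in total, 4.40, 4.09 and 4.78 in monosome and 5.50, 5.63 and 6.41 in polysome RNA. In contrast to *akt-1*, its polysome level was above its total level in every genotype.

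*sgk-1* (WBGene00004789; chromosome X, minus strand, 16254843 to 16262151) encodes a kinase related to AKT that also acts downstream of TOR complex 2. It was at 15.4 FPKM in WT total RNA and at 14.9 FPKM in each mutant. Its monosome level was 20.8, 18.95 and 19.5 FPKM and its polysome level 27.98, 24.6 and 27.1 FPKM. WT was the highest genotype in every fraction, with differences between -0.18 and -0.039 on the log2 scale.

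The locus that joins *daf-18* (WBGene00000913) and *eri-1* (WBGene00001332), which encodes an exonuclease of small RNA pathways, spans 415635 to 425181 of chromosome IV, where both genes lie on the minus strand. It was listed at 151, 127 and 132 FPKM in total RNA. Monosome values were 84.2, 92.5 and 117 FPKM and polysome values 37.3, 44.6 and 52.3 FPKM. The mutants were below WT in total RNA and above it in both ribosome fractions, as for *akt-1*, but which of the joined genes carries this is not known, and the locus enters no count of members below.

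The FOXO gene *daf-16* (WBGene00000912; chromosome I, plus strand, 10750343 to 10776700) has 11 annotated coding transcripts, which the locus value does not separate. It varied the least of the 9 genes over the groups. Total RNA was 52.4, 52.2 and 54.5 FPKM, that is -0.0037 and 0.057 from WT on the log2 scale. In monosome RNA it stood at 71.9, 60.5 and 65.5 FPKM and in polysome RNA at 51.1, 46.9 and 48.97 FPKM, with WT the highest in both.

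*skn-1* (WBGene00004804; chromosome IV, minus strand, 5651087 to 5660523) was at 50.3, 52.8 and 53.2 FPKM in total RNA. Its monosome values were 58.7, 49.3 and 56.8 FPKM and its polysome values 39.9, 34.3 and 36.9 FPKM. Both mutants were above WT in total RNA and below it in the ribosome fractions, the opposite order to *akt-1*, with differences between -0.25 and 0.082 on the log2 scale. The protein-coding gene on its opposite strand, *clec-178*, was at 2.97, 2.73 and 2.72 FPKM in total RNA. *hsf-1* (WBGene00002004; chromosome I, minus strand, 11953512 to 11961984) was at 32.8, 31.7 and 30.5 FPKM in total RNA, 21.0, 20.0 and 23.0 FPKM in monosome RNA and 20.0, 18.0 and 19.3 FPKM in polysome RNA. Its differences from WT stayed between -0.15 and 0.13 in the 3 fractions of both mutants.

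Past 1.5-fold from WT, 0 of the 9 genes were counted in any fraction of either mutant, in either direction. Over all loci, that fold was passed by 12.1% in total, 14.1% in monosome and 12.1% in polysome RNA of *ppp-1(wrm10)*, and by 12.3%, 14.6% and 12.1% in *ppp-1(wrm15)*. A count of 0 of 9 is near these shares and is no result about the pathway. At a lower threshold, a log2 difference of 0.32, 0 of 9 were counted in total, monosome and polysome RNA of *ppp-1(wrm10)*, where 22.6%, 27.9% and 23.1% of the loci were. In *ppp-1(wrm15)*, 1 of 9 was counted in total RNA (*pdk-1*; 25.1% of loci), 2 of 9 in monosome RNA (*daf-2* and *pdk-1*; 31.3%) and 1 of 9 in polysome RNA (*daf-2*; 25.1%), all of them higher than in WT. The median difference of the 9 genes in total RNA was -0.0037 and -0.029, beside -0.058 and -0.035 over all loci.

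**Figure D2:**
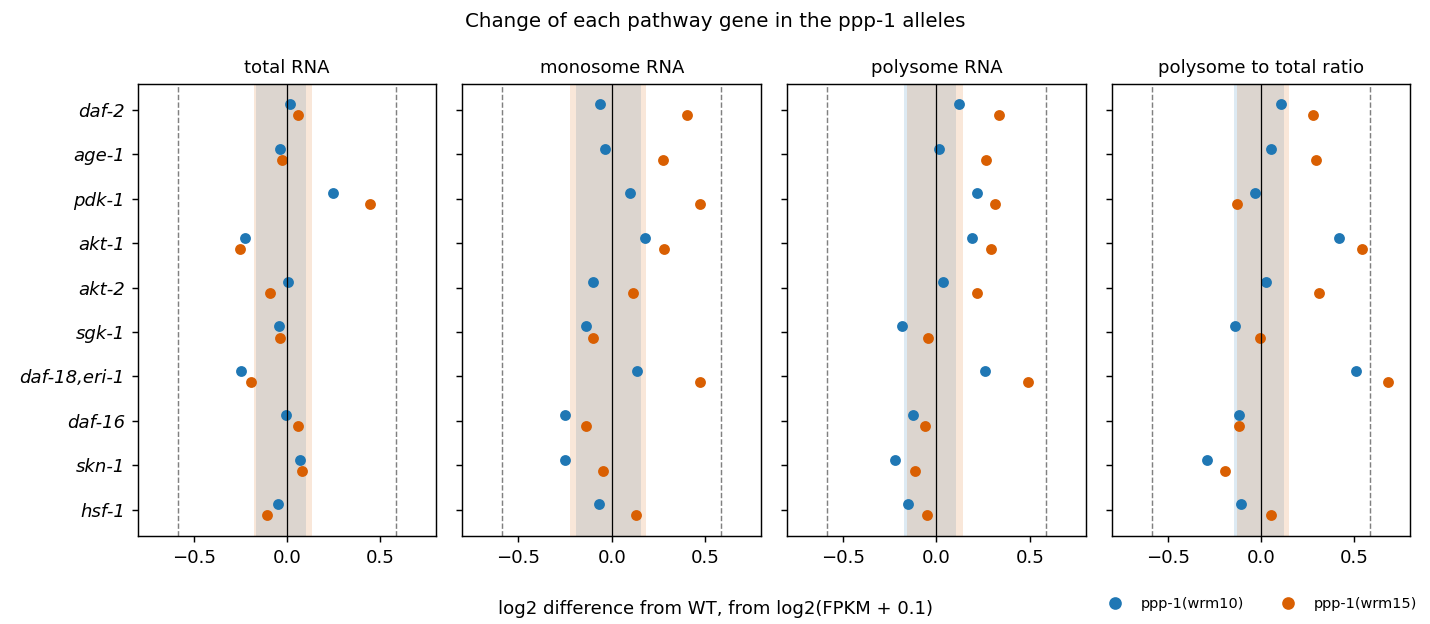
Log2 difference from WT for each pathway gene in total, monosome and polysome RNA and in the polysome to total ratio, with 1 point per allele and no error bar. Shaded bands span the 25th to 75th percentile of all loci and dashed lines mark 1.5-fold. Every gene with a locus of its own lies inside the dashed lines, and *akt-1* lies nearest to them in the ratio (0.42 and 0.54).

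The polysome to total ratio differed more between the genes than between the genotypes of a gene. In WT it was above the median locus (0.096 on the log2 scale) for 2 of 9 genes, *akt-2* at 0.51 and *sgk-1* at 0.86, the kinases with the most polysome RNA for their level. *daf-16* (-0.036) and *skn-1* (-0.33) lay below it, and *hsf-1* (-0.71), *daf-2* (-0.96), *age-1* (-0.997), *pdk-1* (-1.16) and *akt-1* (-1.27) lay below the 25th percentile of the loci, which is -0.68. In both mutants the same genes, *akt-2* and *sgk-1*, were above the median locus. In polysome against monosome RNA they were also the 2 genes above the median locus in every genotype.

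Change of that ratio in the mutants passed 1.5-fold for 0 of 9 genes in both alleles, where 6.1% and 6.87% of the loci passed it. At the lower threshold of 0.32 it was passed by 1 of 9 genes, *akt-1*, in each allele, against 17.5% and 19.4% of the loci. The ratio of *akt-1* was higher than in WT by 0.42 and 0.54, at or above 94.9% and 96.4% of the loci. Monosome RNA of *akt-1* gave the same picture: its monosome to total ratio was higher by 0.41 and 0.53, and its polysome to monosome ratio differed by 0.011 and 0.014. The shift thus lay between total RNA and both ribosome fractions, not between monosomes and polysomes. For the joined *daf-18*,*eri-1* locus the ratio was higher by 0.51 and 0.68, the latter past 1.5-fold. *skn-1* had the lowest change of the 9 genes in both alleles, -0.29 and -0.20, with *daf-16* at -0.12 in each. *akt-2*, *age-1* and *daf-2* were higher in *ppp-1(wrm15)* by 0.31, 0.30 and 0.28, and by 0.029, 0.052 and 0.11 in *ppp-1(wrm10)*.

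**Figure D3:**
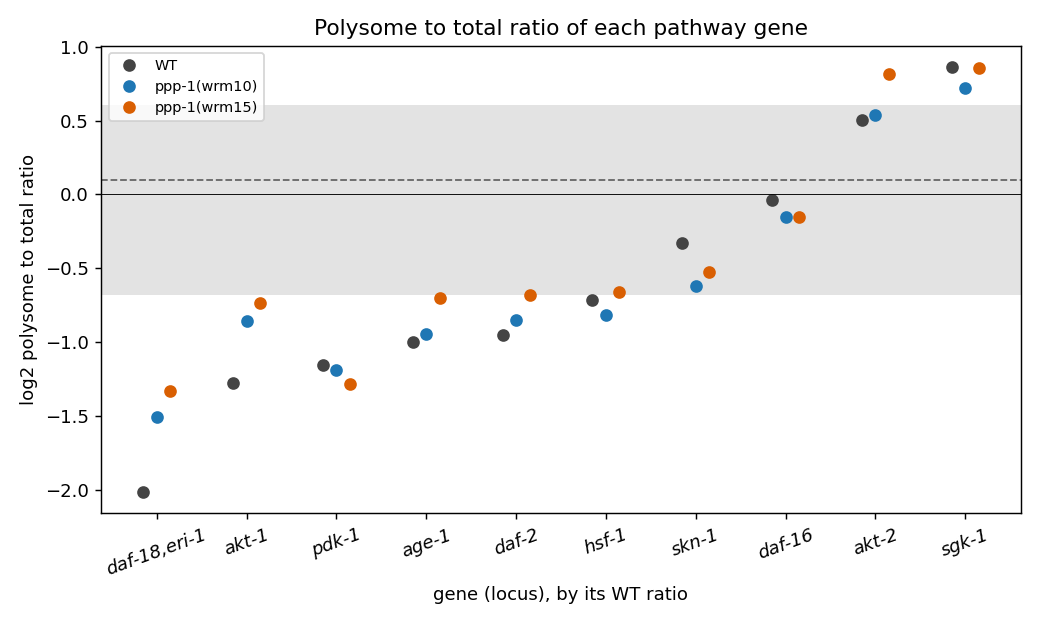
Log2 ratio of polysome to total FPKM for each pathway gene in the 3 genotypes, ordered by the WT value, with no error bar. The dashed line is the median of all loci in WT (0.096) and the band spans their 25th to 75th percentile. Only *akt-2* and *sgk-1* lie above the line, and the genotypes of *akt-1* differ more than those of *daf-16*.

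The alleles differed from each other in the ribosome fractions and little in total RNA. In monosome RNA all 9 genes were higher in *ppp-1(wrm15)* than in *ppp-1(wrm10)*, by 0.038 to 0.47 with a median of 0.20, where the median locus was at 0.0069. The largest were *daf-2* at 0.47, *pdk-1* at 0.37 and *age-1* at 0.31, at or above 97.6%, 96.1% and 94.1% of the loci. In polysome RNA all 9 were again higher in *ppp-1(wrm15)*, by 0.064 to 0.26 with a median of 0.11, beside 0.030 at the median locus. The 25th and 75th percentiles of the loci were -0.14 and 0.13 in monosome RNA and -0.091 and 0.13 in polysome RNA. The share of loci above 0 was not counted, so 9 of 9 is no result about the members. In total RNA 6 of 9 were above 0, with a median of 0.011 beside 0.013. The 9 genes share libraries, and no error of these differences is known. The summed oocyte markers moved with them: they stood at 1078, 992 and 1364 FPKM in monosome RNA and at 749, 707 and 948 FPKM in polysome RNA, while in total RNA they stood at 1597, 1564 and 1699 FPKM. All 6 of these markers also had a low polysome to total ratio in WT, with a median of -1.06, in the range of *daf-2*, *age-1*, *pdk-1* and *akt-1*. Their part in the members' values was not tested.

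For the receptor and each of the transcription factors, the loci with the most similar values over the 9 groups were listed by Pearson's correlation of log2 values. These points share libraries and fractions, so the correlations are a description only. *daf-2* was closest to *set-16* (r = 0.992) and *hum-2* (0.989), *daf-16* to *dlk-1* (0.993) and *mvk-1* (0.991), and *skn-1* to *rga-4* (0.991) and *fzr-1* (0.989). *hsf-1* was closest to Y45G5AM.7 and *tftc-5*, at 0.994 each. Such similarity was common: 842 loci reached 0.95 with *hsf-1*, 189 with *daf-2*, 121 with *skn-1* and 108 with *daf-16*.

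Genes around the pathway were read from lists of its partners, regulators and targets. Among 8 measured partners of insulin signalling, 0 were higher and 1 was lower past 1.5-fold in total RNA of *ppp-1(wrm10)*, the insulin-like peptide gene *ins-7*, and 0 in the other allele. Over all loci, 9.99% and 9.2% were higher and 2.11% and 3.12% lower. *ins-7* stood at 5.17, 3.41 and 3.72 FPKM. Its difference in *ppp-1(wrm15)*, -0.47, was not past the fold. Another insulin-like peptide gene, *daf-28*, was the 1 of 8 lower in monosome RNA of *ppp-1(wrm10)* (-0.77), beside 2.46% of the loci. It was also the 1 lower in polysome RNA of *ppp-1(wrm15)* (-0.79), beside 3.79%, and in the polysome to total ratio of *ppp-1(wrm10)* (-0.70), beside 3.48%. Its mean was only 1.50 FPKM, and in total RNA it differed by 0.24 and -0.43. *aap-1*, which encodes the adaptor subunit of PI3 kinase, was at 28.7, 26.8 and 27.1 FPKM with a polysome to total ratio of -0.89 in WT.

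Of 13 DAF-16 regulators and cofactors, 0 were counted in any fraction of either allele, where 12.1% to 14.6% of the loci were. They include the 14-3-3 genes *ftt-2* (192 FPKM in WT total RNA) and *par-5* (620 FPKM), *sir-2.1* (35.4 FPKM) and the AMP kinase gene *aak-2* (12.9 FPKM). Of 6 SKN-1 regulators, 0 were counted in *ppp-1(wrm10)* and 1 was lower in *ppp-1(wrm15)*, the p38 kinase gene *pmk-1*, in all 3 fractions. Over all loci, 3.12%, 4.39% and 3.79% were lower in total, monosome and polysome RNA of *ppp-1(wrm15)*. *pmk-1* was singled out after its values were seen. It was at 22.6, 20.8 and 8.45 FPKM in total RNA, and at 23.3, 21.5 and 9.93 FPKM in polysome RNA. *wdr-23*, whose product marks SKN-1 for degradation, was at 29.9, 27.7 and 26.5 FPKM. Neither of the 2 measured HSF-1 regulators, *ddl-1* and *ddl-2*, passed the fold.

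Targets of the 3 factors were mostly inside 1.5-fold. Of 13 measured genes that DAF-16 is known to raise in *daf-2* mutants, 0 were past the fold in total RNA of *ppp-1(wrm10)*, where 9.99% of the loci were higher. In *ppp-1(wrm15)* 2 were higher, beside 9.2% of the loci. They were *dod-3* (0.778 FPKM in WT, 1.04 and 2.97 in the mutants) and *lea-1* (124, 140 and 203 FPKM), a gene of the LEA stress proteins. *dod-3* was also low in WT monosome RNA (0.607 FPKM) and WT polysome RNA (1.38 FPKM). Its mean of 1.87 FPKM, by which it was measured, includes the higher mutant values, so its count gives no support. In total RNA the median of these 13 was 0.055 and 0.21 beside -0.058 and -0.035 over all loci. In monosome RNA it was -0.17 and 0.014 beside -0.043 and -0.030, and in polysome RNA -0.010 and 0.15 beside -0.055 and -0.015. In monosome RNA 1 and 2 of the 13 were higher, beside 11.6% and 10.2% of the loci. There 0 and 1 were lower, beside 2.46% and 4.39%. In polysome RNA 1 and 2 were higher, beside 8.98% and 8.34%, and 0 were lower. *sod-3*, the superoxide dismutase gene most used as a DAF-16 reporter, was at 1.03, 1.10 and 1.295 FPKM in total RNA. Its monosome values were 0.747, 0.766 and 1.54 FPKM, past the fold in *ppp-1(wrm15)* (0.95), and its polysome values 2.11, 2.78 and 2.74 FPKM. The metallothionein gene *mtl-1* was past the fold in both alleles, but its mean was under 1 FPKM: it was listed at 0.0713, 0.159 and 1.12 FPKM. With a pseudocount of 1 FPKM it was past the fold in *ppp-1(wrm15)* only.

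Of the regulator and target lists, the genes known to be lower in *daf-2* mutants had the most members past the fold. In total RNA 5 of 7 were lower than in WT in *ppp-1(wrm10)*, where their median was -0.62. Among these, *dod-19* (-0.62) and *ins-7* (-0.587) were close to the fold, which is 0.585 on the log2 scale. *ins-7*, also counted among the insulin partners, differed by 0.12 in monosome and -0.089 in polysome RNA of *ppp-1(wrm10)*. In *ppp-1(wrm15)* 3 of 7 were lower, with a median of -0.47, and 0 were higher in either allele. Over all loci, 2.11% and 3.12% were lower and 9.99% and 9.2% higher. The same 3, *dod-22*, *dod-24* and *dod-17*, were lower in both. *dod-22* stood at 5.55, 2.25 and 2.83 FPKM. *dod-24* was at 13.4, 4.85 and 8.47 FPKM and *dod-17* at 12.0, 6.08 and 7.03 FPKM. In polysome RNA *dod-24* was at 24.6, 9.62 and 16.8 FPKM, so that its polysome to total ratio differed from WT by 0.11 in each mutant. *dod-23* and *dao-3*, of the same list, were not lower: *dod-23* was at 30.6, 30.5 and 34.3 FPKM and *dao-3* at 11.1, 16.3 and 14.2 FPKM. *dod-22*, *dod-24* and *dod-17* are also known as genes of the intestinal immune response. The summed intestinal markers differed from WT by 0.023 and 0.13 in total RNA. In monosome RNA they differed by -0.40 and -0.26, and in polysome RNA by -0.24 and -0.061. The part of intestinal RNA in the values of these genes was not tested.

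Of 9 measured SKN-1 targets, 0 were higher in total RNA of either allele, and 1 was lower in *ppp-1(wrm10)*, the glutathione transferase gene *gst-30* (1.84, 1.09 and 1.63 FPKM). Their medians, -0.22 and -0.17, lay below those of all loci. In the ribosome fractions 3 of 9 were lower in monosome RNA of *ppp-1(wrm15)*, with a median of -0.46, where 4.39% of the loci were lower, and 2 of 9 in polysome RNA of *ppp-1(wrm10)*, beside 3.16% of the loci. *gcs-1*, which makes the first enzyme of glutathione synthesis, was at 44.6, 38.3 and 39.6 FPKM, and *gst-4*, the gene most used as a SKN-1 reporter, at 12.1, 9.38 and 9.46 FPKM. Of 6 measured HSF-1 targets, 0 passed the fold in total RNA of either allele, where 12.1% and 12.3% of the loci did. *hsp-1*, the constitutive HSP70 gene, was at 1439 FPKM in WT and between 1445 and 1514 in the mutants. The inducible *hsp-16* genes were each under 2 FPKM in every group, and as near-identical pairs they may share reads. Of these *hsp-16.48* was higher past the fold in total RNA of both alleles, listed at 0.129, 0.798 and 0.296 FPKM, while in polysome RNA WT was the highest, at 1.34, 0.0776 and 0.142 FPKM.

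**Figure D4:**
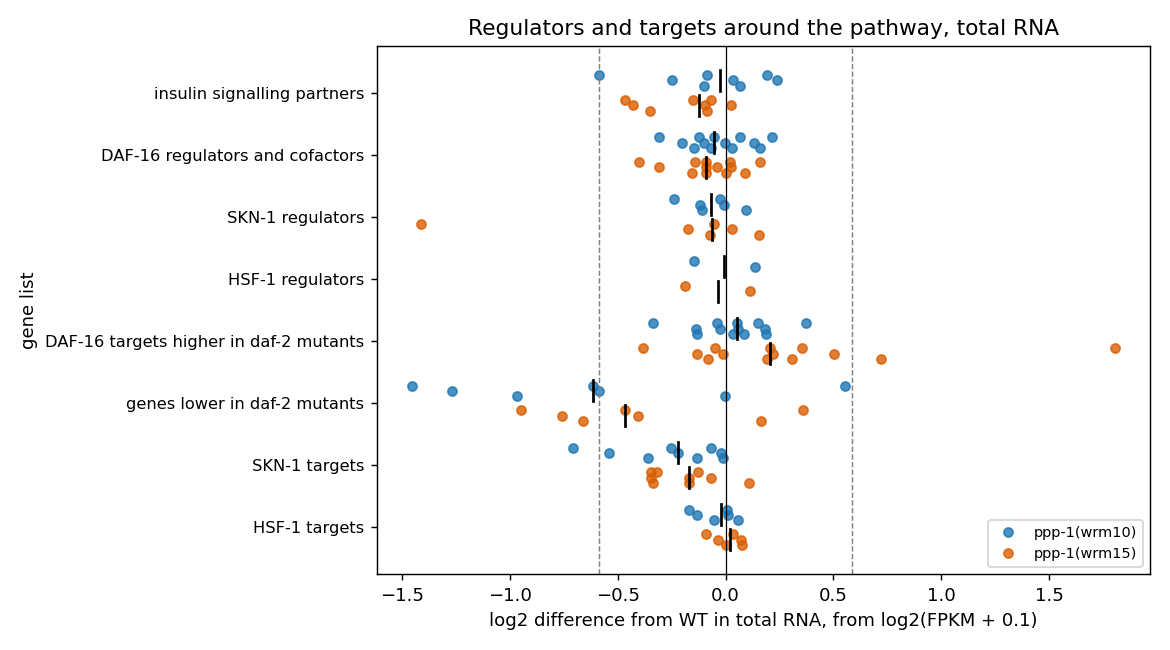
Log2 difference from WT in total RNA for the genes of each list with a mean of at least 1 FPKM, with 1 point per gene and allele. Black ticks are medians and dashed lines mark 1.5-fold. Genes lower in *daf-2* mutants lie furthest left as a list (medians -0.62 and -0.47), and the single SKN-1 regulator past the left line is *pmk-1* in *ppp-1(wrm15)*.

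Some tissue markers also differed from WT. Of the sperm markers, 3 of 9 were higher past 1.5-fold in total RNA of both alleles, beside 9.99% and 9.2% of the loci. They were *ssp-16* (52.3 FPKM in WT, 348 and 369 in the mutants), *spe-38* (1.14, 7.12 and 6.61 FPKM) and *spe-9* (1.62, 3.08 and 2.78 FPKM). The sperm protein genes *msp-77* and *msp-142* were within the fold in total RNA. In polysome RNA 4 and 3 of the 9 were higher, beside 8.98% and 8.34% of the loci. There 3 of 9 were lower in both alleles, beside 3.16% and 3.79% of the loci: *msp-77* (-0.86 and -0.83), *msp-142* (-0.64 and -0.59) and *sss-1* (-1.75 and -1.41). Of the 4 hypodermal markers, *dpy-5* (100 FPKM in WT, 232 and 184 in the mutants) and *rol-6* (6.56, 12.4 and 10.3 FPKM) were higher in both. *dpy-7* was past the fold in *ppp-1(wrm10)* only (0.61 and 0.50). *col-19*, the most abundant of them, was not higher, at 1135, 1038 and 1040 FPKM. Summed, the 4 differed from WT by 0.047 and -0.0080 in total RNA. In monosome RNA the sum differed by -0.44 and -0.30, and in polysome RNA by -0.25 and -0.11. The early embryo marker *end-1* was listed at 0.137, 0.378 and 0.267 FPKM. *end-3*, of the same list, was lower than in WT, at 0.380, 0.325 and 0.318 FPKM. Summed, the 6 embryo markers stood at 2.63, 3.58 and 3.55 FPKM in total RNA (0.43 and 0.42 from WT). The part of the tissue markers in the values of the pathway genes was not tested.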

How the data were processed

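Per the sources used here, the authors aligned rRNA-depleted reads to WBcel235 with HISAT2 2.1.0, assembled transcripts with StringTie 1.3.4d, and merged, quantified and compared them with Cufflinks 2.2.1 (Cuffmerge, Cuffquant and Cuffdiff). The deposited values are FPKM, 1 per group and locus, pooled by the authors over 4 libraries; no source used here gives the normalization options or the strand setting. The same table holds, for 36 pairs of groups, the authors' own fold changes, test statistics, p-values and q-values, which were not used. It has no counts and no value per library, so depth and precision are unknown and no test was run. Group values repeated over pairs were checked and were identical. Loci with joined names (3085) were left out of the member counts, the lists and the most similar loci. Those with a mean of at least 1 FPKM stayed among the 12741 loci used for comparison.

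Differences were computed as log2(FPKM + 0.1) with Python 3.11.15, numpy 2.4.6 and pandas 2.3.3, tested on simulated data, against loci with a mean of at least 1 FPKM, at folds of 1.5 and 1.25 (0.58 and 0.32 on the log2 scale). Positions are from the table, and strands, overlaps and coding lengths from Ensembl release 115 for WBcel235. Named were all 10 members, from each list the genes past 1.5-fold in the same direction in both alleles in total RNA (at most 5), and for *daf-2*, *daf-16*, *skn-1* and *hsf-1* the 2 most similar loci; other genes were chosen after their values were seen. The members and lists were chosen with earlier results of these data known.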

Additional observations from a re-analysis of the deposited data

How the results depend on the processing

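No paired analysis was possible because the table gives pooled values that carry no replicate numbers, and for the same reason no library could be left out. The counts of members were computed under 54 alternatives, and 48 of them gave a count within 1.5 times the main one. At a log2 difference of 0.32 in place of 0.58 the count of members was 1 in total RNA, 2 in monosome RNA and 1 in polysome RNA of *ppp-1(wrm15)*, and 1 for the change of the polysome to total ratio in each allele, each 0 at 1.5-fold. With joined loci added, the ratio count in *ppp-1(wrm15)* was 1 (*daf-18*,*eri-1*). No pseudocount, a pseudocount of 1, a fold of 2, centring on the median locus and monosome RNA as the denominator left all these counts as they were, and 2 members stayed above the median locus in WT without the filter and at a mean of at least 10 FPKM. Of 306 values of single genes, 300 stayed on their side of 1.5-fold. The other 6, with a pseudocount of 1 FPKM, no longer passed it, all of low genes: *mtl-1* and *end-1* in *ppp-1(wrm10)* (0.11 and 0.28) and *hsp-16.48*, *spe-9*, *end-1* and *rol-6* in *ppp-1(wrm15)* (0.20, 0.53, 0.16 and 0.58). No value reversed. Values of a few FPKM carry an unknown counting error.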

Other observations

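The p38 kinase genes next to *pmk-1* were looked at after its values were seen. *pmk-3*, *pmk-2* and *pmk-1* lie side by side on chromosome IV, at 8139219 to 8151156 of WBcel235, and are known to form an operon. In total RNA of *ppp-1(wrm15)* all 3 were lower: *pmk-3* stood at 19.9, 16.7 and 5.96 FPKM, and *pmk-2* at 15.2, 13.5 and 3.03 FPKM. In total RNA of *ppp-1(wrm15)* against *ppp-1(wrm10)*, *pmk-2* differed by -2.12, *pmk-3* by -1.47 and *pmk-1* by -1.29, and at most 0.534% of the loci were as low as any of them. *pmk-3* stood out less in the ribosome fractions, where 2.08% (monosome) and 4.05% (polysome) of the loci were as low. In polysome RNA it was at 9.76, 9.22 and 6.81 FPKM, not past 1.5-fold from WT (-0.51). *pmk-2* was past it in both, by -1.94 and -1.41. The next gene, *islo-1*, was also lower in total RNA, at 6.71, 5.24 and 3.29 FPKM. The flanking *isp-1* (236, 216 and 229 FPKM) and *faah-2* (21.5, 24.6 and 21.3 FPKM) were not past 1.5-fold.

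The rest of the p38 cascade did not follow: *nsy-1*, *sek-1*, *tir-1*, *atf-7* and *vhp-1* were all within 1.5-fold in total RNA of both alleles. Of 8 genes known to need PMK-1 for their expression, a list chosen after these values were seen, 3 were lower past 1.5-fold in total RNA of *ppp-1(wrm10)*. In *ppp-1(wrm15)* 1 was lower, *dod-22*, and 0 were higher in either allele. Over all loci, 2.11% and 3.12% were lower in total RNA. In monosome RNA 2 and 2 of the 8 were lower, beside 2.46% and 4.39% of the loci. In polysome RNA 3 and 1 were lower, beside 3.16% and 3.79%. T24B8.5, the gene most used as a PMK-1 reporter, stood at 4.03, 4.28 and 3.97 FPKM. B0218.5, beyond *faah-2*, was higher in both alleles, at 3.25, 15.7 and 14.2 FPKM.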
